A study of Mus musculus with 6 samples.

Results

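The comparison described here is pressure overload against sham surgery in hearts that lack Kdm3a. It rests on the 3 knockout arrays of a series of 6, which are 2 arrays labelled Kdm3a-KO TAC (KO TAC 1 and KO TAC 2) and 1 array labelled Kdm3a-KO Sham (KO Sham). The members were all arrays with these labels, and every gene with an annotated probe above background was examined, 9649 genes in all. The other 3 arrays of the series, 2 of WT TAC and 1 of WT Sham, entered the filter on probes and the fit. They serve below as a second reference and in the test of TAC effects between genotypes. Of the 9649 genes, 398 were above background on no KO array.

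All hearts were left ventricles labelled as adult male C57/BL6, from mice operated on at 6 to 8 weeks of age, with tissue taken 3 weeks afterwards. The study's text, however, gives a later harvest week for its expression profiles and describes the knockout as global on a mixed FVB and C57 background, with a further knockout line made on C57. Which line the KO arrays came from is not given in the sources used here. Nothing in the labels says that KO TAC 1 and KO TAC 2 came from separate animals, so the spread between them may be partly technical. In whole ventricle, fewer cells of a type and less RNA per cell cannot be told apart.

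Transverse aortic constriction (TAC) narrows the aorta, so that the left ventricle pumps against a higher pressure. Wild-type hearts are known to answer with cardiomyocyte growth, a return of fetal genes such as those for natriuretic peptides and the slow myosin heavy chain, and fibrosis. KDM3A removes methyl groups from dimethylated lysine 9 of histone H3, a mark of silent chromatin, and so is known as a coactivator of transcription. The knockout comparison asks what pressure overload still changes in the ventricle when this enzyme is missing.

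The labels were checked on Kdm3a first. One Kdm3a probe read 136.9 and 143.4 in KO TAC 1 and KO TAC 2 and 129.0 in KO Sham, below the background level on all 3 KO arrays, against 264.0 to 295.6 on the 3 WT arrays (deposited intensity). A second probe still read 394.1 and 361.5 in KO TAC and 389.9 in KO Sham, above background, so transcript from part of the gene was present in the knockout. All 4 probes for Xist, the RNA that silences the inactive X chromosome in females, were below background on all 6 arrays. Eif2s3y, a Y-linked translation factor gene, did not follow. The normalized log2 intensity of its probe that was above background in WT was 5.04 and 5.17 in KO TAC and 4.60 in KO Sham, below background on all 3 KO arrays, against 9.74 and 9.92 in WT TAC and 9.77 in WT Sham. Of the Y-linked Kdm5d and Uty, 1 probe each was above background on all 6 arrays, and their other probes were below it on all 6. The probes above it were dim, at 162.1 to 192.2 for Kdm5d and 149.0 to 195.0 for Uty in deposited intensity. The background level was 149.0 to 155.1. The reason for this difference between KO and WT arrays was not tested.

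The array profiles put the comparison in scale. Across genes, Pearson's r was 0.990 between KO TAC 1 and KO Sham, 0.995 between KO TAC 2 and KO Sham, and 0.989 between the KO TAC arrays themselves. The WT TAC arrays stood apart, with r of 0.917 to 0.929 against the KO TAC arrays. Genes are not independent replicates, so these values describe the arrays only.

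No gene passed the test between KO TAC and KO Sham. With limma at a Benjamini-Hochberg adjusted p of 0.05, 0 genes were higher and 0 were lower (0% of 9649 in each direction), and the smallest adjusted p was 0.9998. At an unadjusted p of 0.05, 126 genes were higher (1.31%) and 128 were lower (1.33%). KO Sham was a single array, whose spread the model took to equal that of the paired arrays, and a permutation of 2 arrays against 1 cannot go below p = 0.333.

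The intervals of the fit rest on that assumed spread of KO Sham. If the paired arrays are not separate animals, the spread between animals is not in them. The 95% interval of the difference lay within 2-fold in either direction for 9057 genes (93.9%) and within 1.5-fold for 4962 genes (51.4%). A p-value that misses the threshold does not show that a gene was unaltered. For the other genes the interval leaves room for a larger difference even under this assumption.

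Markers of the response to TAC were examined next. Timp1, an inhibitor of matrix metalloproteinases, was at 7.41 and 7.74 in KO TAC and 7.69 in KO Sham (normalized log2 intensity, as are all levels below). Its difference was -0.11 ± 0.20 on the log2 scale (SE, n = 2 and 1), with a 95% interval of -0.59 to 0.36. In WT hearts the same gene was at 12.70 and 12.61 in TAC and 7.71 in Sham. All 3 KO arrays lay close to WT Sham and far below WT TAC.

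Myh7, the slow beta myosin heavy chain of the fetal ventricle, was at 7.55 and 7.02 in KO TAC and 7.46 in KO Sham, a difference of -0.17 ± 0.24. Myh6, the adult alpha myosin heavy chain, was at 14.88 and 14.92 in KO TAC and 14.88 in KO Sham. For neither myosin gene was the difference from KO Sham larger than the replicate spread.

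Nppa and Nppb, which encode the atrial and brain natriuretic peptides, separated the TAC replicates more than they separated TAC from sham. Nppa was at 12.99 and 12.09 in KO TAC and 13.00 in KO Sham. Nppb was at 13.75 and 12.65 in KO TAC and 13.58 in KO Sham. Acta1, the skeletal actin that ventricles express before birth and under load, had the same form at 12.92 and 11.77 in KO TAC and 13.04 in KO Sham. In each of these genes KO TAC 1 lay near KO Sham and KO TAC 2 was apart, with differences from KO Sham of -0.91, -0.92 and -1.28.

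Of the 13 measured genes in the list of cardiac stress and fetal genes, 0 passed the test. On both KO TAC arrays 1 was higher (7.69%) and 5 were lower (38.5%), against 28.2% and 31.4% of all genes. The list's median difference was -0.17, and it was 0.01 in KO TAC 1 alone and -0.33 in KO TAC 2 alone, so its direction came from KO TAC 2. Over all 9649 genes the median difference was -0.01. Rcan1, a calcineurin target and inhibitor, was lower on both arrays, at 11.65 and 11.32 in KO TAC and 11.91 in KO Sham. Its difference was -0.42 ± 0.20.

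Extracellular matrix genes, which make up the fibrotic response, were flat as a group. The 22 measured collagen and crosslinking genes had a median difference of 0.01, and none was past 0.32 in log2 on both arrays. On both arrays 3 were higher (13.6%) and 6 were lower (27.3%), against 28.2% and 31.4% of all genes. The 22 measured matricellular and TGF-beta genes had a median of 0.02, with 8 higher (36.4%) and 5 lower (22.7%). Comp, a cartilage matrix glycoprotein gene, held the highest difference of that list, with 6.11 and 6.98 in KO TAC and 5.80 in KO Sham (0.75 ± 0.35). Its second kept probe, above background on 1 KO array, went the other way with -0.28.

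A shared shift is taken below as the smaller of the differences of KO TAC 1 and KO TAC 2 from KO Sham, counted where both have the same sign. Both arrays lay above KO Sham in 2720 genes (28.2% of those tested) and below it in 3032 (31.4%). Both were over 0.32 on the log2 scale above it in 185 genes (1.92%) and below it in 215 (2.23%). At 1.5-fold these counts were 25 (0.259%) and 22 (0.228%). At 2-fold 1 gene was left in each direction (0.0104%), Pcna above and Lockd below. These shares are themselves the background for any list above or below. KO Sham is the same array in both differences, so a deviation of that array alone moves both the same way.

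Shared shifts lay mostly among dim genes. Of the 25 genes over 1.5-fold higher, 6 were above background on all 3 KO arrays, and in 19 the KO Sham array was not above background. Of the 22 over 1.5-fold lower, 7 were above background on all 3 KO arrays, and in 12 neither KO TAC array was. The median level of the 25 was 6.04 in KO TAC and 5.23 in KO Sham, against 8.09 in KO TAC and 8.10 in KO Sham over all genes. Without background correction, on the log2 of the deposited intensities, 0 genes were over 1.5-fold on both arrays in either direction, and with an offset of 50 in place of 16 there were 3 higher and 5 lower. The filter of 2 or more of 6 arrays can be met by the KO TAC arrays alone but not by KO Sham alone. With no filter on dim probes there were 45 higher and 70 lower.

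**Figure D1:**
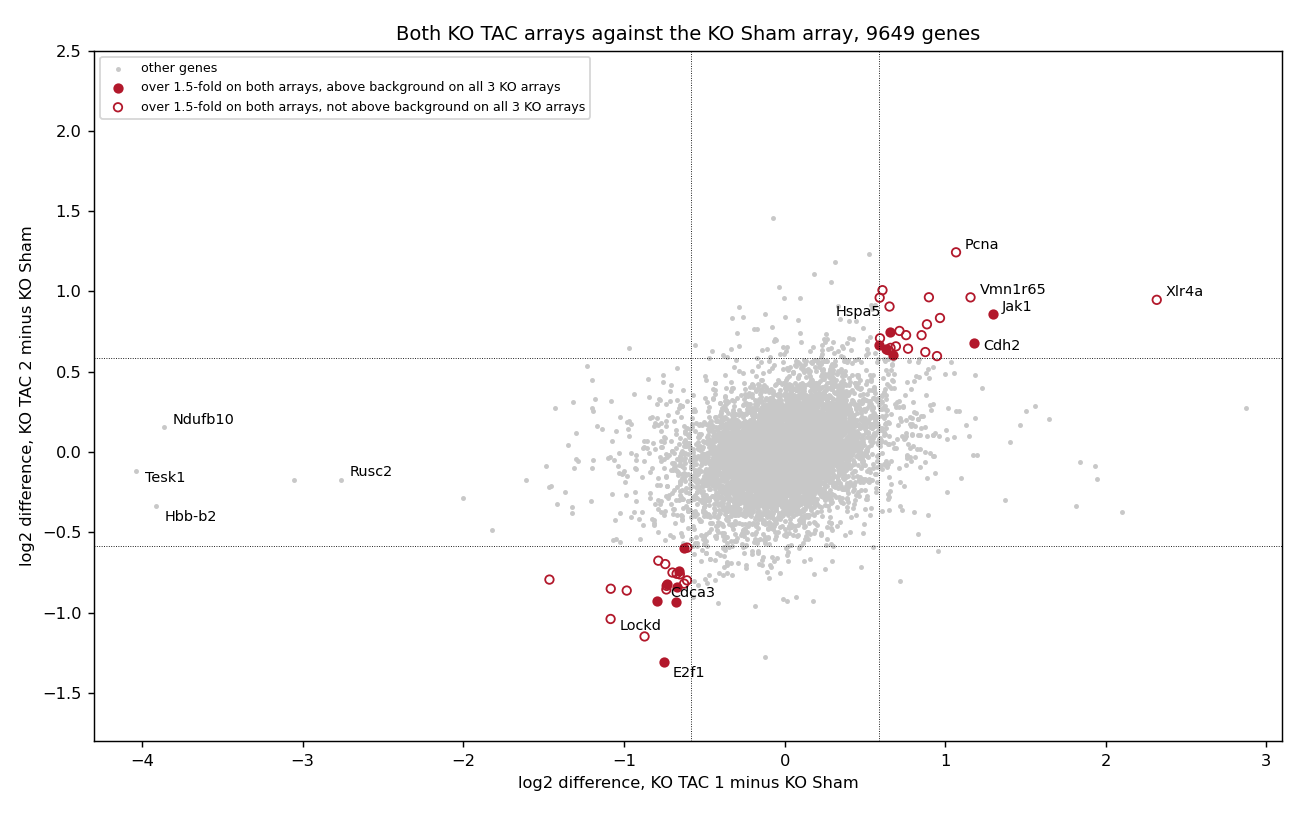
Difference of KO TAC 1 from KO Sham (horizontal axis, log2) against the difference of KO TAC 2 from KO Sham (vertical axis, log2), 1 point per gene, with dotted lines at 1.5-fold. The 47 red points, 25 up and 22 down, are the genes past 1.5-fold on both arrays, filled where all 3 KO arrays were above background; the long tail to the left belongs to KO TAC 1 alone.

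Among genes above background on all 3 KO arrays, the 12 largest shared shifts in the upward direction began with Jak1, a tyrosine kinase that signals for cytokine receptors. It was at 8.11 and 7.66 in KO TAC and 6.81 in KO Sham, a difference of 1.08 ± 0.27 with an interval of 0.44 to 1.72. A second kept Jak1 probe differed by 0.06, so the shift was seen on 1 probe of 2. Cdh2, N-cadherin of the intercalated disc, was at 6.87 and 6.37 in KO TAC and 5.69 in KO Sham, and its difference was 0.93 ± 0.25. Its second probe differed by 0.80 and was also over 1.5-fold on both arrays.

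Hspa5, the main chaperone of the endoplasmic reticulum, had close replicates. It was at 7.27 and 7.36 in KO TAC and 6.62 in KO Sham, a difference of 0.70 ± 0.17 (interval 0.31 to 1.10). Of the 23 measured genes for chaperones and the unfolded protein response, Hspa5 was the only one over 1.5-fold, and also the only one over 0.32 in log2, on both arrays, and the list's median was 0.05. Its promoter is shown because it holds the element through which endoplasmic reticulum stress is known to act. It lies at chr2:34771840-34772139 on the plus strand of GRCm38.p6 (RefSeq), from 250 bases before the annotated start to 50 bases from it, and capitals mark the match to the ER stress element.
Hspa5: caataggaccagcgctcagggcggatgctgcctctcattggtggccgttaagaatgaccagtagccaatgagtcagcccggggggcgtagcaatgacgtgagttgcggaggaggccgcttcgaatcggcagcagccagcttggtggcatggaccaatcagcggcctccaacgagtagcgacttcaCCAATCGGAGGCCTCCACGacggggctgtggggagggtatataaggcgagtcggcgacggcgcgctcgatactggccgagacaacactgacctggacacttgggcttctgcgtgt
The letters searched were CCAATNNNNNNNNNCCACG on both strands, and the match begins at position -65 from the annotated start. Of 32851 promoters of this length, 39 hold it (0.119%).

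Ion channel genes were also among the 12. Kcnj2, which carries the inward rectifier current that sets the resting potential, was at 6.85 and 6.75 in KO TAC and 6.17 in KO Sham (0.63 ± 0.16). Kcnd2, a channel of the transient outward current, was at 9.39 and 9.27 in KO TAC and 8.72 in KO Sham (0.61 ± 0.29), and its second probe differed by 0.41. Of the 21 measured contraction and calcium handling genes these were the 2 past 0.32 in log2 on both arrays, and the list's median was 0.04.

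The other members had other roles. Ube3a, a ubiquitin ligase, was at 8.29 and 8.31 in KO TAC and 7.66 in KO Sham. Kpnb1, a nuclear import receptor, was at 8.30 and 8.35 in KO TAC and 7.73 in KO Sham. Pgrmc1, a haem-binding membrane protein, was at 7.40 and 7.48 in KO TAC and 6.81 in KO Sham. In these genes the KO TAC arrays lay close together, and KO TAC 1 minus KO TAC 2 was -0.01, -0.06 and -0.08. Minpp1, an inositol phosphate phosphatase, Cldn15, a claudin, Atg2a, a lipid transfer protein of autophagy, and Nrn1, a neuritin, had differences of 0.64, 0.57, 0.70 and 0.88. Nrn1 had the widest error of the 12, 0.48, with 9.19 and 9.90 in KO TAC and 8.67 in KO Sham. Of the 24 genes of both directions, 9 had more than 1 kept probe, and in 1 of these (Cdh2) every probe was over 1.5-fold on both arrays. The second probes of Atg2a differed by 0.23 and -0.00, and that of Ube3a by 0.25.

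In the downward direction 5 of the 12 are known for roles in the cell cycle, a grouping made after the genes were seen. Cdca3, Nusap1 and Prc1 are on the mitosis list used below, which holds 13 of the 9649 genes tested. E2f1 and Pbk are on no list, so the 5 have no share over all genes to be set against. Cdca3, which triggers entry into mitosis as part of a ubiquitin ligase, was at 6.28 and 6.14 in KO TAC and 7.07 in KO Sham, a difference of -0.86 ± 0.19 with an interval of -1.31 to -0.40. E2f1, a transcription factor of the switch into DNA synthesis, was at 6.21 and 5.65 in KO TAC and 6.96 in KO Sham (-1.03 ± 0.26). Nusap1, a spindle protein, was at 5.80 and 5.63 in KO TAC and 6.47 in KO Sham (-0.75 ± 0.23). Prc1, which bundles microtubules of the central spindle, was at 7.26 and 7.02 in KO TAC and 7.82 in KO Sham (-0.68 ± 0.19), and Pbk, a mitotic kinase, differed by -0.70 ± 0.18. That both KO TAC arrays lie below KO Sham follows from how these genes were chosen.

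The other 7 were of mixed function. Irx2, a homeobox factor of the developing heart, was at 7.89 and 7.64 in KO TAC and 8.57 in KO Sham, and its second probe differed by -0.60 against -0.80 for the first. Mthfd2, a mitochondrial enzyme of one-carbon metabolism, was at 7.29 and 7.81 in KO TAC and 8.36 in KO Sham. Ifi27l2a, an interferon-induced gene, was the brightest of them at 10.24 and 10.43 in KO TAC and 10.98 in KO Sham (-0.64 ± 0.17). Sh3gl2 (endophilin A1), Larp1b (an RNA-binding protein), Tshz2 (a zinc finger factor) and 2410137M14Rik had differences of -0.77, -0.61, -0.58 and -0.60. The other Tshz2 probes differed by 0.21 and -0.26 and were below background on all 3 KO arrays.

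**Figure D2:**
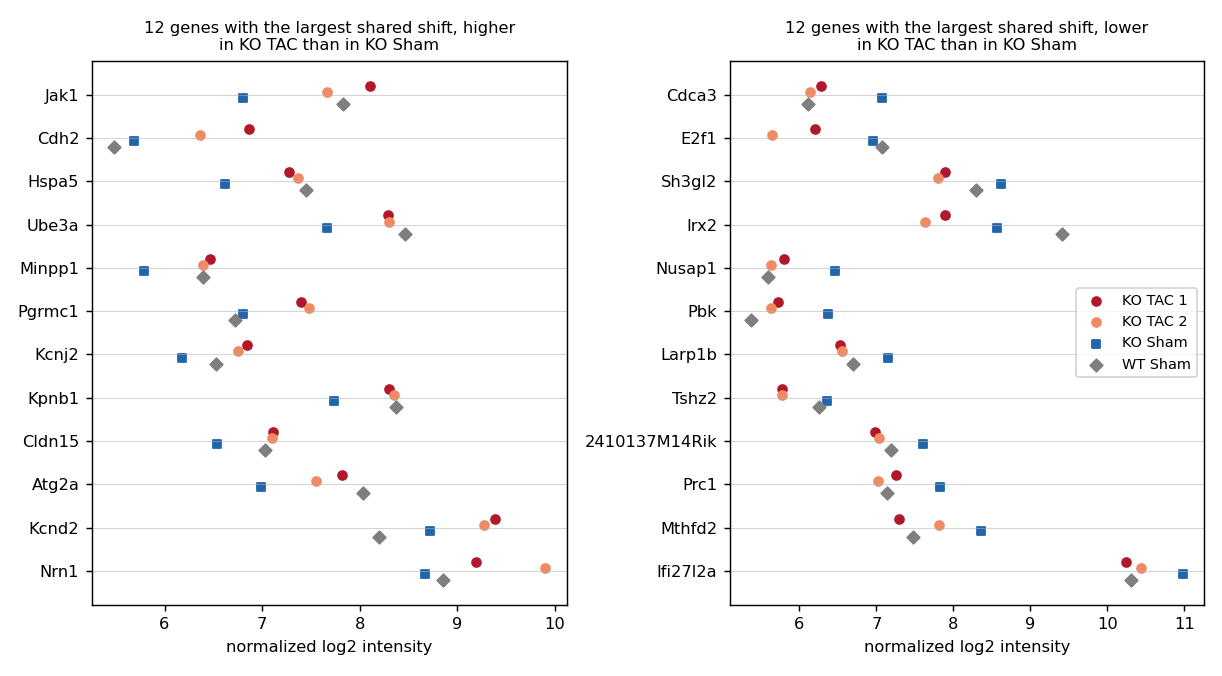
Normalized log2 intensity (horizontal axis) of KO TAC 1, KO TAC 2, KO Sham and WT Sham for the 12 genes with the largest shared shift in each direction. The KO TAC points lie to one side of KO Sham in every gene because the genes were chosen so. WT Sham is drawn as a further level, and with genes chosen this way a deviation of KO Sham alone would also place it near KO TAC.

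Set beside WT Sham, several of these genes had KO TAC levels near WT Sham and a KO Sham level apart from it. Hspa5 was at 7.45 in WT Sham, Cdca3 at 6.11, Nusap1 at 5.59, Prc1 at 7.14, Ube3a at 8.47, Kpnb1 at 8.37 and Minpp1 at 6.39. E2f1 (7.07), Cdh2 (5.48), Pgrmc1 (6.72) and Tshz2 (6.25) had WT Sham levels near KO Sham instead. The difference of KO TAC from KO Sham and that of KO Sham from WT Sham share the KO Sham array, so these values are given side by side only. Without a second KO Sham array, a difference between surgeries and a deviation of that array cannot be told apart.

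Cell cycle genes were taken as lists of mitosis and DNA replication. Of 31 genes on the mitosis list 13 were measured, 0 passed the test, 9 were lower and 2 were higher on both KO TAC arrays, against 31.4% and 28.2% of all genes. The median difference was -0.40, with -0.56 in KO TAC 1 and -0.24 in KO TAC 2. Lower by over 0.32 in log2 on both arrays were 5 members, Cdca3, Cdca8, Nusap1, Prc1 and Cdc20. The first 3 of these passed 1.5-fold on both arrays. Cdca8 (borealin), of the chromosomal passenger complex, was at 5.70 and 5.58 in KO TAC and 6.44 in KO Sham (-0.80 ± 0.17), and was above background on 2 of the 3 KO arrays. Cdc20, which activates the anaphase-promoting complex, was at 6.48 and 6.59 in KO TAC and 7.11 in KO Sham.

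Members outside these 5 spread more widely. Cdk1, the mitotic kinase, was at 5.29 and 5.75 in KO TAC and 5.98 in KO Sham, and Birc5 (survivin) at 5.91 and 6.35 in KO TAC and 6.53 in KO Sham. Stmn1, a microtubule destabiliser, was on the other side at 6.54 and 6.18 in KO TAC and 6.10 in KO Sham. Most members lay near background. The median of KO Sham minus WT Sham over the same 13 genes was 0.57, with the KO Sham array shared. With no filter on dim probes, 28 mitosis genes entered and their median was -0.11, and it was -0.15 without background correction.

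The 19 measured DNA replication genes had a median of -0.26, with 11 lower and 6 higher on both arrays, yet the largest shared shift of all genes was Pcna, the sliding clamp of DNA polymerase, in the upward direction. It was at 6.38 and 6.56 in KO TAC and 5.31 in KO Sham, a fitted difference of 1.16 ± 0.17 with an interval of 0.74 to 1.57. KO Sham was below background, so the measured bound is at least 1.75-fold higher in KO TAC. WT Sham was at 6.25. Gmnn (geminin), which blocks relicensing of origins, was also higher on both arrays, at 5.41 and 5.78 in KO TAC and 4.82 in KO Sham, but was above background on KO TAC 2 only. Tk1 (thymidine kinase) was lower, at 5.41 and 6.03 in KO TAC and 6.33 in KO Sham.

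The promoters of Cdca3 and Cdca8 are shown because promoters of mitotic genes are known for a CHR element together with CCAAT boxes. They lie at chr6:124829926-124830225 (plus strand) and chr4:124936868-124937167 (minus strand) of GRCm38.p6, from RefSeq, each read 5′ to 3′ on the strand of its gene, and capitals mark both motifs.
Cdca3: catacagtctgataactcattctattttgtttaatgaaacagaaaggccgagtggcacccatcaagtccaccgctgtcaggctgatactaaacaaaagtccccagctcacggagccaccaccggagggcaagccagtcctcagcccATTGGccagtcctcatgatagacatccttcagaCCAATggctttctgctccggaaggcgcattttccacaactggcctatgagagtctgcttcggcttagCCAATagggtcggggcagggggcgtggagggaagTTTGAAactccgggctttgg
Cdca8: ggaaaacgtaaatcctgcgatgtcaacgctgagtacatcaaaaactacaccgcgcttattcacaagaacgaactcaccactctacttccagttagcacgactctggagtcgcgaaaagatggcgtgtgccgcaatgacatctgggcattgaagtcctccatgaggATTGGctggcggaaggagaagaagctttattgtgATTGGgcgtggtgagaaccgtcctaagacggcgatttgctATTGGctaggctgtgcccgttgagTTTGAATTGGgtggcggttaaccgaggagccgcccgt
The letters searched were TTTGAA or TTTAAA for the CHR element and CCAAT for the box, on both strands. Cdca3 had 1 CHR match and 3 CCAAT matches, and Cdca8 had 1 and 4, with the CHR match sharing a base with the last CCAAT match. The third gene past 1.5-fold, Nusap1, had neither in its window. Of the 13 measured mitosis genes 12 had a promoter in the RefSeq table, and of the 9649 genes 7822 did. A CHR match was present in 10 of the 12 mitosis genes (83.3%), against 27.6% of all promoters and 18.9% of those of measured genes, and a CCAAT match also in 10 (83.3%), against 37.4% and 38.3%. A match is a description of letters.

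**Figure D3:**
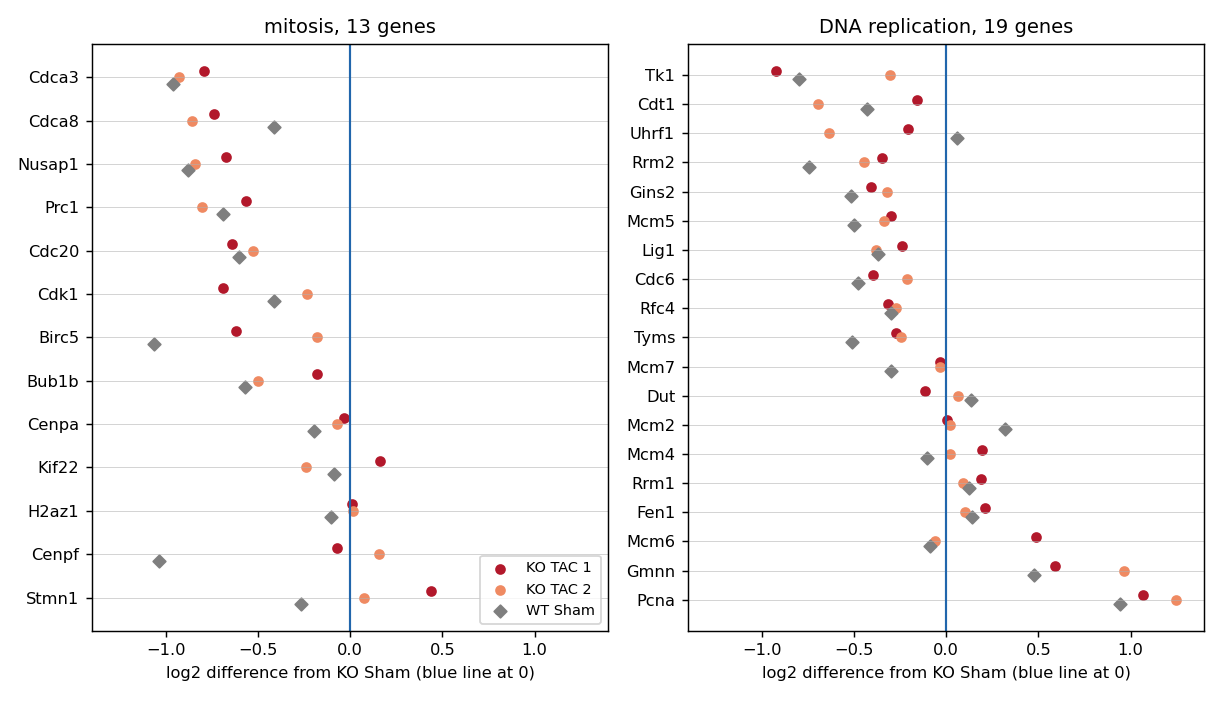
Level of each measured mitosis gene (left) and DNA replication gene (right) in KO TAC 1, KO TAC 2 and WT Sham as a log2 difference from KO Sham, which is the blue line at 0. Most mitosis points lie left of the line, the WT Sham points among them, and Gmnn and Pcna lie right of it.

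Above background on both KO TAC arrays and not on KO Sham were 128 genes (1.33%), and the other way round 112 (1.16%). These counts are not alike, because the filter asked for 2 or more of 6 arrays above background. The KO TAC arrays alone passed the 128, while each of the 112 also needed a WT array. All of these genes were dim, with a mean of at most 6.68 in KO TAC for the 128 and a level of at most 6.56 in KO Sham for the 112. The 4 with the largest bound in each direction are given here. On the TAC side, Vmn1r65 was at 6.77 and 6.58 in KO TAC and 5.61 in KO Sham, at least 2.02-fold higher. It is a vomeronasal receptor gene whose probe is itself one of the 1545 receptor probes that set the background, so its signal on KO TAC arrays stands above the set to which it belongs. Xlr4a, an X-linked gene of a lymphocyte-regulated family, was at 7.23 and 5.86 in KO TAC, 4.91 in KO Sham and 8.18 in WT Sham, at least 1.85-fold higher in KO TAC than in KO Sham. With KO TAC 1 alone this bound was 2.97-fold and with KO TAC 2 alone 1.15-fold. Hspa1a, an inducible heat shock protein, was at 6.97 and 5.70 in KO TAC, 5.41 in KO Sham and 10.22 in WT Sham, at least 1.6-fold higher in KO TAC, with 2.49-fold from KO TAC 1 alone and 1.03-fold from KO TAC 2 alone. On the Sham side, Lockd, a long non-coding RNA next to the Cdkn1b gene, was at 5.48 and 5.52 in KO TAC and 6.56 in KO Sham, at least 1.9-fold lower. Hoxb2, a homeobox gene, was at least 1.87-fold lower, Farsa, a subunit of phenylalanyl-tRNA synthetase, at least 1.38-fold lower and Zfp606, a zinc finger gene, at least 1.47-fold lower in KO TAC. A second Zfp606 probe, above background on all 3 KO arrays, differed by 0.03.

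By unadjusted p the highest genes were Pcna, Slc41a1 (a magnesium transporter), Vmn1r65, Hnrnph2 (a splicing factor) and Sash1 (a scaffold protein), and the lowest were Farsa, Lockd, Hoxb2, Cdca8 and Cdca3. Slc41a1 was at 5.76 and 5.63 in KO TAC and 4.80 in KO Sham. Hnrnph2, at 5.54 and 5.45 in KO TAC and 4.66 in KO Sham, was not above background on any KO array. Sash1 was at 5.82 and 5.89 in KO TAC and 4.92 in KO Sham, and for it and Slc41a1 KO Sham was below background. The measured bounds were at least 1.15-fold for Sash1 and 1.03-fold for Slc41a1. In all 10 the KO TAC arrays lay on one side of KO Sham, which choosing the smallest p for this contrast favours. All had an adjusted p of 0.9998 in limma.

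In energy metabolism 0 genes passed the test. Of the 26 measured fatty acid oxidation genes 11 were higher, 1 was lower and 14 were split between the arrays, with a median of 0.04. Acot1, an acyl-CoA thioesterase induced through PPAR-alpha, was at 10.83 and 10.96 in KO TAC and 10.45 in KO Sham (0.44 ± 0.17). Of the 14 measured citric acid cycle genes 8 were higher, 0 lower and 6 split, with a median of 0.08. Idh2, the mitochondrial isocitrate dehydrogenase, was at 14.10 and 14.16 in KO TAC and 13.74 in KO Sham, and Sucla2, a succinyl-CoA ligase subunit, at 5.82 and 6.10 in KO TAC and 5.39 in KO Sham. For Sucla2 KO Sham was below background, and the measured bound was at least 1.23-fold. Sdhd, the membrane anchor of succinate dehydrogenase, was at 10.99 and 11.27 in KO TAC and 10.62 in KO Sham. The 95% interval was 0.03 to 0.86 for Acot1 and -0.21 to 0.98 for Idh2.

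Heat shock genes had a median of 0.11, with 8 of 15 higher and 0 lower on both arrays. The median was 0.20 in KO TAC 1 alone and 0.00 in KO TAC 2 alone, and that of KO Sham minus WT Sham was -0.58. No member passed the test. Hspa1b, an inducible HSP70 gene, was alone past 1.5-fold on both arrays, at 5.87 and 5.84 in KO TAC and 5.11 in KO Sham. KO Sham was below background, so the measured bound for Hspa1b is only at least 1.14-fold higher in KO TAC. A pair of sterol and fatty acid enzymes had KO Sham below background, Fads2, a fatty acid desaturase, at 6.0 and 5.88 in KO TAC and 5.23 in KO Sham, and Dhcr7, the last enzyme of cholesterol synthesis, at 6.17 and 5.79 in KO TAC and 5.27 in KO Sham. The list of 16 to which both genes belong had a median of 0.05.

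Of 20 measured interferon-induced genes 0 passed the test. On both arrays 12 had lower values and 1 a higher value than KO Sham, and 7 were split, with a median of -0.18 that split into -0.31 in KO TAC 1 and -0.02 in KO TAC 2. Oas2, an antiviral RNA sensor, was at 5.88 and 6.40 in KO TAC and 6.77 in KO Sham (-0.63 ± 0.24). Ifit2 was at 7.11 and 7.06 in KO TAC and 7.44 in KO Sham. Bst2 (tetherin) was the exception, at 7.91 and 7.69 in KO TAC and 7.36 in KO Sham.

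Other lists stayed near the median of all genes, with 0 members past the test. Oxidative phosphorylation (23 measured) had a median of 0.02, glucose use (14) 0.05, the integrated stress response (15) 0.01, immediate early genes (19) 0.07, the circadian clock (11) 0.02, cytosolic ribosomal proteins (16) -0.04 and the enzymes that write or erase H3K9 methylation (8) 0.04. Both arrays lay above KO Sham in 8 and below it in 5 of the immediate early genes, which are known to respond within minutes to stress. Among H3K9 enzymes 3 were higher and 1 was lower on both arrays.

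Marker lists of the cell types of the ventricle were level in their medians. Cardiomyocyte markers (9 measured) had a median of 0.00, fibroblast markers (12) 0.01, endothelial markers (12) -0.01, smooth muscle and pericyte markers (9) 0.01 and macrophage markers (15) -0.08. Single members differed more. Acta2, the smooth muscle actin, was at 13.36 and 12.92 in KO TAC and 12.46 in KO Sham (0.68 ± 0.26), and its other 3 probes differed by 0.82, 0.93 and 0.80. Pi16, a fibroblast marker, was at 10.14 and 10.32 in KO TAC and 10.71 in KO Sham (-0.48 ± 0.18). Erythroid markers (8 measured) were lower on both arrays in 5 and higher in 0, with a median of -0.14. Slc4a1, the anion exchanger of red cells, was at 6.02 and 6.45 in KO TAC and 6.90 in KO Sham, and Alas2, the first enzyme of haem synthesis in red cells, at 8.77 and 9.16 in KO TAC and 9.42 in KO Sham. The part of blood content in the differences was not tested. Lists with under 5 measured genes gave -0.16 for Hox genes (4), -0.24 for atrial markers (4), -0.44 for lymphocyte markers (2), -0.06 for mesothelial markers (2) and 0.01 for Schwann cell markers (2). No adipocyte marker was above the filter (0 of 8).

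**Figure D4:**
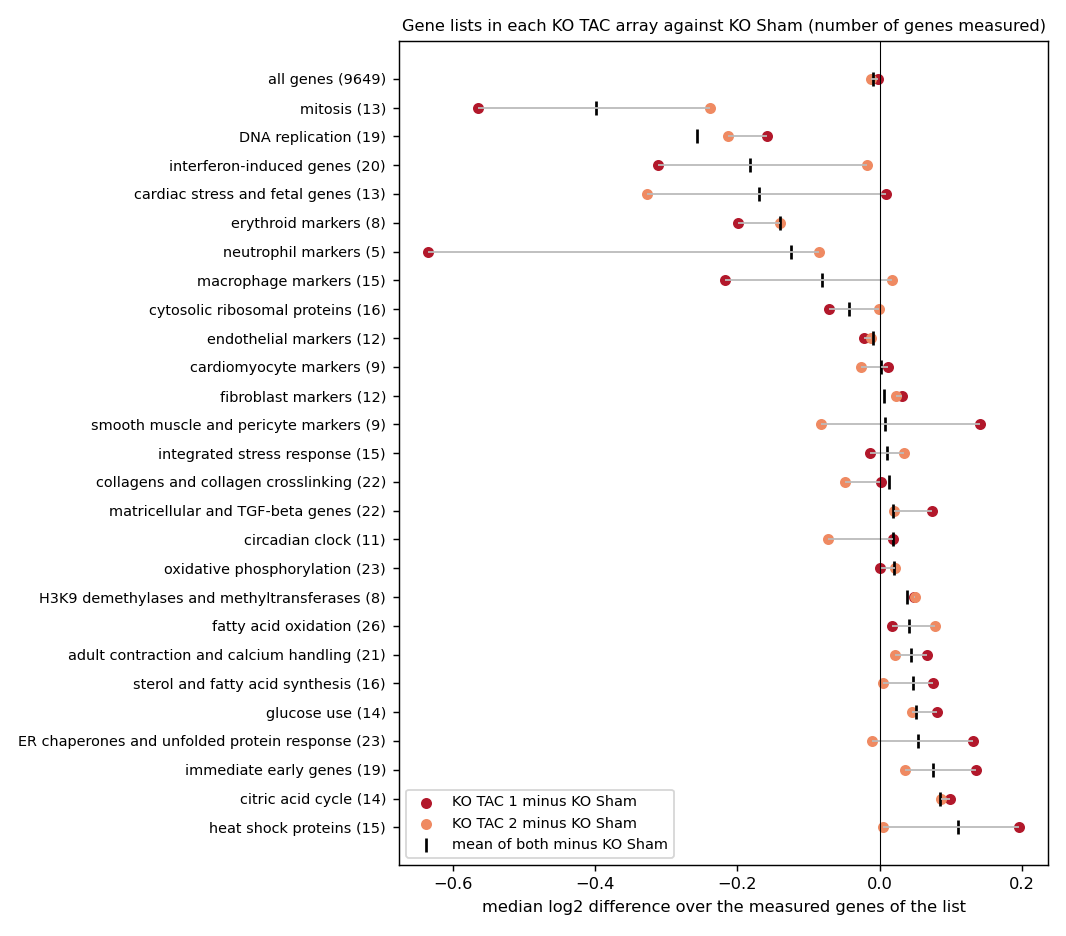
Median log2 difference from KO Sham over the measured genes of each list with 5 or more, for KO TAC 1 (dark red), KO TAC 2 (orange) and the mean of both (black mark), with the number of genes in brackets. The black mark is a median of means and can lie outside the coloured points. Mitosis has the lowest median at -0.40 and heat shock proteins the highest at 0.11, and the grey lines show how far the replicates of a list stood apart.

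The TAC replicates differed from each other as much as either differed from sham. The median absolute log2 difference was 0.165 between KO TAC 1 and KO TAC 2, 0.154 between KO TAC 1 and KO Sham and 0.118 between KO TAC 2 and KO Sham. Over 1.5-fold apart were 572 genes between the KO TAC arrays (251 higher on KO TAC 1, 2.6%, and 321 higher on KO TAC 2, 3.33%), 516 between KO TAC 1 and KO Sham and 202 between KO TAC 2 and KO Sham. Over 2-fold these counts were 101, 87 and 12. The WT TAC arrays were over 1.5-fold apart in 300 genes and over 2-fold apart in 13. In 6012 genes (62.3%) the difference between the KO TAC arrays was wider than their mean difference from KO Sham.

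KO TAC 1 accounted for most of the wide differences. Of the 101 genes over 2-fold apart, KO Sham was nearer to KO TAC 2 in 87 (86.1%), against 57.6% over all genes. Spread fell with level, with a median difference between the KO TAC arrays of 0.232 over the 2413 dimmest genes and 0.121 over the 2412 brightest. Leaving out KO TAC 2, so that KO TAC 1 alone was set against KO Sham, 4 genes were called higher and 6 lower at an adjusted p of 0.05 in limma, and leaving out KO TAC 1 there were 0. The 4 were Gadd45gip1, Dennd2a, Prrt4 and Parp12, and the 6 were Tesk1, Hbb-b2, Ndufb10, Klra9, Rusc2 and Cacna1h.

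**Figure D5:**
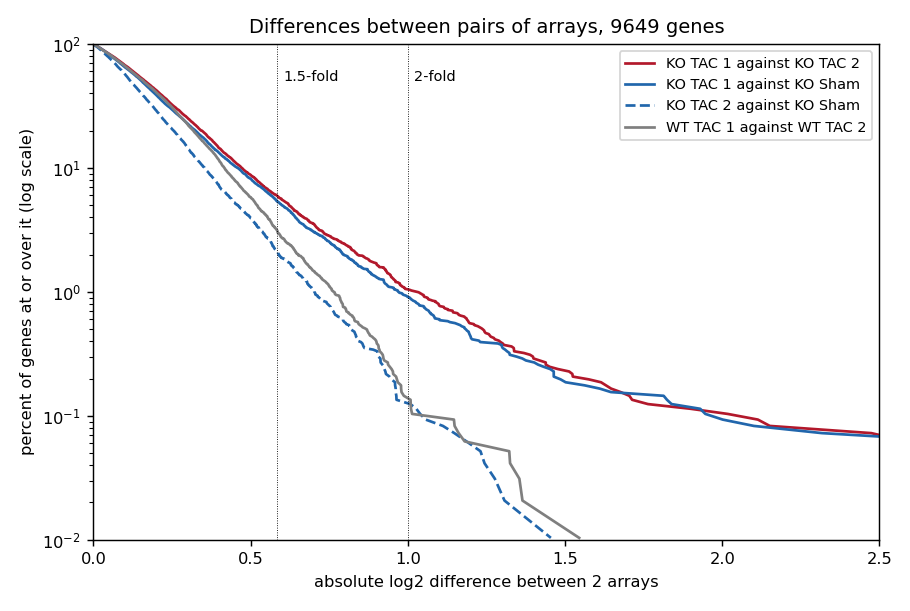
Percent of genes (vertical axis, log scale) whose absolute log2 difference between 2 arrays was at or over the value on the horizontal axis, for the KO TAC pair, each KO TAC array against KO Sham, and the WT TAC pair. The KO TAC pair and KO TAC 1 against KO Sham run together, with 5.93% and 5.35% of genes past 1.5-fold, above KO TAC 2 against KO Sham with 2.09%.

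Individual genes on KO TAC 1 were far from all other arrays. Ndufb10, a subunit of respiratory complex I, was at 9.14 in KO TAC 1, 13.15 in KO TAC 2 and 13.00 in KO Sham. Its other probe ran the other way, at 12.50 in KO TAC 1, 11.32 in KO TAC 2 and 11.36 in KO Sham, so the probes did not report the same change in the transcript. Tesk1, a testis kinase also expressed elsewhere, was at 5.62 in KO TAC 1, 9.54 in KO TAC 2 and 9.66 in KO Sham. Rusc2, a vesicle traffic adaptor, was at 7.07 in KO TAC 1, 9.66 in KO TAC 2 and 9.83 in KO Sham, and its second probe matched this at 6.99, 9.60 and 9.72. Rusc2 and Tesk1 are near neighbours on chromosome 4, with 1 coding gene annotated between their starts.

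In other genes KO TAC 1 lay nearer to WT Sham than the other KO arrays did, and these were picked after their values were seen. Klra9, a natural killer cell receptor, was at 4.88 in KO TAC 1, 7.76 in KO TAC 2 and 7.93 in KO Sham, against 4.77 and 4.69 in WT TAC and 4.65 in WT Sham. Prrt4 was at 6.59 in KO TAC 1, 4.58 in KO TAC 2 and 4.66 in KO Sham, against 8.52 and 8.53 in WT TAC and 7.25 in WT Sham. Parp12 (an ADP-ribosyltransferase) was at 6.65, 4.50 and 4.84 on these KO arrays, against 6.86 and 6.76 in WT TAC and 7.08 in WT Sham. Dennd2a was at 7.09, 4.97 and 5.14 on the same KO arrays, against 7.84 and 8.12 in WT TAC and 7.65 in WT Sham. KO TAC 1 was close to the WT arrays for Klra9 and Parp12, and below all of them for Prrt4 and Dennd2a. All 4 are on chromosome 6, which also carries Kdm3a.

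By chromosome, 17 of 504 genes tested on chromosome 6 were over 2-fold apart between the KO TAC arrays (3.37%), against 1.05% of all genes and 0% to 2.10% on the other 18 autosomes. KO TAC 1 was nearer to WT Sham than KO TAC 2 was in 15 of these 17 genes (88.2%), against 48 of the 84 genes over 2-fold apart on other chromosomes (57.1%) and 56.8% of all genes, with no test since the chromosome was picked after its values were seen. At 1.5-fold chromosome 6 was within the range of the others, with 7.94% against 2.94% to 9.61%. Hbb-b2, a minor adult beta-globin gene on chromosome 7, had the lowest mean difference of any gene, and most of it came from KO TAC 1, at 5.43 in KO TAC 1, 9.01 in KO TAC 2 and 9.34 in KO Sham, and at 4.87 in WT Sham. Why KO TAC 1 differed in these genes was not tested.

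The widest replicate differences among genes above background on all 3 KO arrays included other known genes. Higher on KO TAC 1 were Myorg, a glycosidase (9.87 and 7.97 in KO TAC 1 and KO TAC 2), Dennd2c (7.37 and 5.70), Ret, the GDNF receptor (7.28 and 5.71), Dctn1, of dynactin (7.62 and 6.09), Rab6b (7.77 and 6.33) and Kcnk1, a leak potassium channel (7.03 and 5.70). Higher on KO TAC 2, besides Ndufb10 and Rusc2, were Adh1, an alcohol dehydrogenase (9.19 in KO TAC 2 against 7.49 in KO TAC 1, and so for the next 3), Vwf, the endothelial clotting factor (10.13 against 8.51), Cytl1, a cytokine-like gene (8.29 against 6.76), and H2-Eb1, an MHC class II gene (10.20 against 8.69). KO Sham lay between the replicates in these genes, except for Rab6b (6.12) and Rusc2, and was for example 9.48 for Vwf and 6.90 for Dctn1. Over the 5 measured neutrophil markers the median of KO TAC 1 minus KO TAC 2 was -1.02, but the members differed. S100a8, a calcium-binding neutrophil protein, was at 6.84 in KO TAC 1, 8.24 in KO TAC 2 and 8.33 in KO Sham, and S100a9, its partner, at 5.95, 7.07 and 7.32 on these arrays. Lcn2, lipocalin 2, was at 7.40 in KO TAC 1 and 7.39 in KO TAC 2, and the other two, Retnlg and Ngp, were above background on no KO array and had KO TAC 1 minus KO TAC 2 at -1.02 and 0.47.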

How the data were processed

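Left ventricular RNA was hybridised to Illumina BeadChips with 45281 probes, 1 array per sample. The deposited values are linear intensity values made by the authors with GenomeStudio 2011.1, as the submitters' processing notes name it. The arrays shared one distribution, to within 0.838% at each rank, as quantile normalization gives. The method is not given in the sources used here. A second table, with 6 signal columns whose names match no sample label, was not used.

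Intensities were background corrected with nec in limma 3.58.1 (R 4.3.3; normexp, offset 16) and quantile normalized on the log2 scale. Probes of olfactory, vomeronasal and taste receptors (1545) served as negative controls in place of the detection p-values first planned, and their 99th percentile set the background level of each array (149.0 to 155.1 in the deposited intensity). Probes above it on 2 or more of 6 arrays were kept (16691). Between 33.0% and 35.4% of probes were above background per array, and the number of arrays limits the precision. The platform annotation gave 34885 probes 1 gene, 18 several and 10378 none, and 99.8% of named probes matched a current gene ID (GRCm38.p6). Each of 9649 genes was taken from its brightest kept probe.

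One limma fit over all 4 groups (lmFit, eBayes, 2 residual and 4.62 prior degrees of freedom) gave KO TAC minus KO Sham, with Benjamini-Hochberg adjustment over all genes, and the difference of the TAC effects between genotypes. Lower bounds set the mean of the bright group against the background level or the dim probe, whichever was higher. The procedure was tested on simulated data. Genes were named by these rules: the 12 largest shared shifts per direction above background on all 3 KO arrays, the 6 widest replicate differences per direction, up to 4 genes per direction detected in 1 KO group only, a few markers of the model (Kdm3a, Timp1, Nppa, Nppb, Myh7, Myh6), up to 3 list members with the largest shared shift, and the 5 lowest p-values per direction. The members, the rules and the 33 gene lists were chosen with earlier results of these data known. Others, among them the genes of the chromosome account, further list members and those called without KO TAC 2, were named after their values were seen. Promoters came from RefSeq (GRCm38.p6). The 12 alternatives covered background correction, filter, probe choice, normalization, fit and left-out arrays.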

Additional observations from a re-analysis of the deposited data

Results flagged for a closer look

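The KO TAC against KO Sham difference was tested against the WT TAC against WT Sham difference with an interaction term in limma, and the test picked out the following results because the TAC effects differed between the genotypes at an adjusted p of 0.05. Of 9649 genes, 542 (5.62%) had a higher and 808 (8.37%) a lower TAC effect in KO hearts. Each genotype had 1 sham array, so a deviation of either sham array enters these values.

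Among the 91 genes named above, 33 were picked out by this limma test, 14 higher and 19 lower, with adjusted p-values of 0.000464 to 0.0459. Many of the 91 were named for a large KO TAC minus KO Sham difference, which is itself part of the tested contrast. Their p-values and their number therefore reuse the values that chose them and are description only. Values are KO minus WT in log2. Matrix and stress genes were on the lower side, with -6.96 for Comp, -5.06 for Timp1, -3.77 for Myh7, -2.57 for Nppa and -2.33 for Pi16. Neutrophil markers gave -5.56 for S100a8, -5.16 for S100a9, -5.14 for Retnlg and -4.38 for Lcn2. The red cell genes Slc4a1 and Alas2 stood at -1.93 and -1.42. Of the 8 measured erythroid markers these 2 were lower and 1 was higher by this test, and the list's median was -0.09. Mthfd2, of one-carbon metabolism, was at -2.48.

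Genes of the cell cycle fell on either side, with -1.34 for Cdca3 and -1.38 for Pbk, but 1.43 for Pcna. Lockd, a long non-coding RNA, was at -1.28. The interferon genes Ifi27l2a and Ifit2 were at -1.03 and -1.0, Cldn15 at -1.37 and Farsa at -1.04. Chaperones were on the higher side, with 3.56 for Hspa1a, 1.47 for Hspa1b and 1.35 for Hspa5. Acot1 was the highest of all at 4.30, and Irx2 was at 2.03. Signalling and channel genes included Jak1 at 1.5 and Kcnj2 at 1.53.

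The remaining values were 1.26 for 2410137M14Rik, 1.09 for Atg2a, 1.28 for Dhcr7, 1.36 for Slc41a1, 1.15 for Ube3a and 2.03 for Vmn1r65. In 11 of the 33 genes the 95% interval of the KO difference itself covered 0.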

How the results depend on the processing

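The counts of 0 called genes held under every alternative except the one without KO TAC replicate 2, where 4 were called higher and 6 lower; over the left-out arrays the counts ran 0 to 4 and 0 to 6. There the lone KO TAC array is assumed to vary like the WT TAC pair. Hbb-b2 was among these calls at -3.92. The 25 higher and 22 lower shared shifts became 0 and 0 without background correction, 3 and 5 with an offset of 50, 45 and 70 with no filter on dim probes, and 6 and 7 among genes above background on all 3 KO arrays. Leaving out either KO TAC array leaves no shared shift and no replicate spread to compute. The median spread of the KO TAC arrays was 0.106 without background correction. The mitosis median was -0.15 without it and -0.11 with no filter, and -0.24 to -0.56 over the left-out arrays. The cardiac stress median ran from -0.33 to 0.01 over them. Zfp606 turned to 0.025 when the probe had to be above background on all 3 KO arrays. Of the other values of single genes, each under each alternative, 723 were counted as held and 34 moved by more than the replicate spread. For genes named by shared shift, by detection in 1 KO group or by lowest p, held meant only that the direction stayed. Their sizes did change with the alternative. Hspa5 was as low as 0.38 against 0.70 as reported, and Cdca3 was at -0.42 against -0.86. No paired analysis was possible because KO Sham is 1 array without a replicate number, so the groups compared share fewer than 2 numbers. Dim probes near background and the single KO Sham array limit what could be detected.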

Other observations

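Of 2244 probes above the filter without an assigned single gene, 14 (0.624%) were over 1.5-fold higher and 9 (0.401%) over 1.5-fold lower on both KO TAC arrays than on KO Sham, against 0.259% and 0.228% of genes. The difference between these shares was not tested. Over all 16691 kept probes 0 were called by limma.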
